A study of Homo sapiens with 5 samples.

Results

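The genes described here are 10 members of the phosphoinositide-specific phospholipase C (PLC) family, PLCB1, PLCB2, PLCB3, PLCB4, PLCG1, PLCG2, PLCD1, PLCD3, PLCE1 and PLCH1, out of 23459 genes counted by 3′ mRNA sequencing. They were taken by their Entrez identifiers, and the family was chosen by the measured level of PLCB4, which was abundant in control cells and lower after JUN activation in these same libraries. The change of PLCB4 is therefore given as a description without a test. The rule used no value of the other members, although earlier results of these data were known when the family was listed. The libraries came from MCF10A SAM cells, derived as picked single clones from the immortalised human mammary epithelial line MCF10A. All of them, controls included, carry MCP-p65-HSF1 and the dead-Cas9 activator dCas9-VP64, which a guide RNA brings to a promoter, and all were grown with EGF, insulin, hydrocortisone, cholera toxin and horse serum. The control cells received a non-targeting guide (NTC, 3 libraries), and the JUN-overexpressing cells received sgJUN#1, which directs the activators to the JUN promoter (2 libraries). The question addressed by the study is how raised JUN alters gene expression in these cells.

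Phospholipase C enzymes cleave the membrane lipid PIP2 into diacylglycerol, which activates protein kinase C and its relatives, and IP3, which opens calcium channels of the endoplasmic reticulum. The isozymes differ mainly in what switches them on. The β enzymes answer to G protein-coupled receptors through Gq and βγ subunits, the γ enzymes to tyrosine kinases such as the EGF receptor, the ε enzyme to small GTPases such as Ras, and the δ and η enzymes mainly to calcium.

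Library totals ran from 2455627 to 4988062 counts, and levels are given as counts-per-million (CPM) after scaling between libraries. A count of 0 allows up to 3 counts, which corresponded to between 0.619 and 1.22 CPM. As a check of the guide, JUN measured 25.0, 36.2 and 9.32 CPM in the NTC libraries against 172 and 265 CPM in the sgJUN#1 libraries. Both sgJUN#1 libraries were above all NTC libraries, and the edgeR adjusted p-value over all genes was 0.0733, above the threshold of 0.05. JUN passed with the replicate number as a block (log2 fold change 2.82, edgeR adjusted p-value 1.15e-04) and with DESeq2 (adjusted p-value 4.08e-11). In the block fit NTC replicate 3, without an sgJUN#1 library of that number, carried no weight in the group difference. The epithelial keratins KRT5 and KRT6A were present in every library, with at least 392 and 1113 counts, whereas KRT14, a basal keratin, had at most 13 counts and KRT17 had none in NTC replicate 1. Of the 11 epithelial and basal markers, 10 were above 0 in every library. The epithelial adhesion gene EPCAM held 86, 18 and 105 counts in NTC and 697 and 158 in sgJUN#1, and the integrin gene ITGB4 held 432, 117 and 1318 counts in NTC and 128 and 73 in sgJUN#1. Their groups did not overlap on the CPM scale, with log2 fold changes of 2.44 and -2.55 and edgeR adjusted p-values of 0.210 and 0.459, and their part in the PLCB4 values was not tested. Of the 4 fibroblast markers, DCN held 65 to 396 counts and COL1A2 at most 1, and the list summed to 23.9 to 88.7 CPM in NTC and 30.1 to 51.5 CPM in sgJUN#1. Of the 3 endothelial markers, VWF held 16 to 40 counts and PECAM1 at most 2, and the list summed to 7.70 to 10.99 CPM in NTC and 7.51 to 9.91 CPM in sgJUN#1. Of the 4 lymphoid and myeloid markers, CD68 held 14 to 55 counts and CD3E was at 0 in every library. In bulk RNA, fewer cells that express a gene and less RNA in each cell cannot be told apart.

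Of the 10 members, 8 had enough counts to be tested and 2, PLCB2 and PLCD1, did not. Since each transcript gives reads near its 3′ end, levels of different genes are compared here as CPM without division by length. PLCB4 dominated the family in both groups, and the remaining members were expressed at low levels.

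PLCB4 encodes the β4 isozyme, an effector of Gq that is best known from neurons of the cerebellum and retina. The gene lies on chromosome 20 (GRCh37, 9048472 to 9485240, plus strand) and no other gene of the table overlaps it. It has 39 annotated protein-coding transcripts with 15 different 3′ ends, which the counts do not separate. The NTC libraries held 1846, 1237 and 2830 PLCB4 counts and the sgJUN#1 libraries 400 and 200. On the CPM scale these were 508, 503 and 628 in the NTC libraries and 82.6 and 71.6 in the sgJUN#1 libraries. The groups did not overlap, and the lowest NTC library was 6.10 times the highest sgJUN#1 library, while the NTC libraries differed among themselves by 1.25 times. PLCB4 averaged 546 ± 70.5 CPM over the NTC libraries (SD, n = 3) and 77.1 ± 7.78 CPM over the sgJUN#1 libraries (SD, n = 2). The fitted log2 fold change was -2.82 with an SE of 0.223, that is 7.08 times lower in sgJUN#1. By level, PLCB4 ranked between 153 and 252 among the 13616 tested genes in the NTC libraries, and 2869 and 3238 in the sgJUN#1 libraries. These values are those on which the family was chosen. PLCB4 also stands on the study's list of genes that hyperactive YAP (YAP5SA) induced in other MCF10A derivatives. The study clustered those genes without supervision over cells with and without YAP5SA and JUN overexpression, and PLCB4 is in the first cluster. It reports that JUN overexpression fully blunted the induction of this cluster by YAP5SA. None of the other members was found in that list or its clusters.

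**Figure D1:**
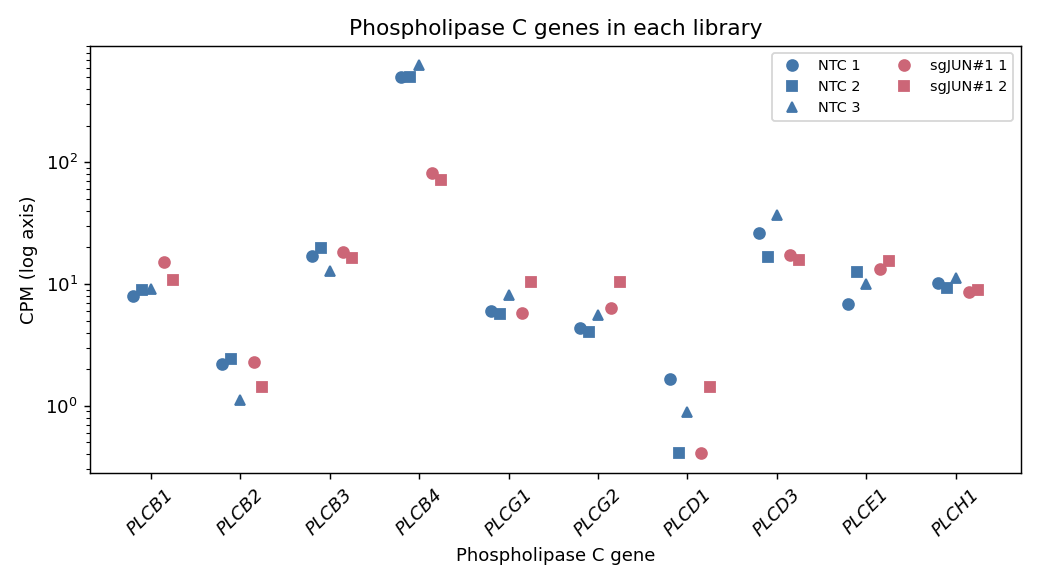
CPM of the 10 phospholipase C genes (log axis) in each library, with NTC in blue and sgJUN#1 in red. PLCB4 lay between 503 and 628 CPM in NTC, against 82.6 and 71.6 CPM in sgJUN#1, and no other member exceeded 37.0 CPM.

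Without PLCB4, the summed level of the family overlapped between the groups. The 10 members summed to 591, 584 and 724 CPM in NTC and to 170 and 162 CPM in sgJUN#1. The 9 members other than PLCB4 summed to 82.8, 80.2 and 96.0 CPM in NTC and to 87.5 and 90.9 CPM in sgJUN#1, so that the groups overlapped, with means of 86.3 ± 8.51 (SD, n = 3) and 89.2 ± 2.38 CPM (SD, n = 2). As a share of all counts of the family, PLCB4 made up 86.0%, 86.3% and 86.7% in the NTC libraries, with Wilson 95% intervals within 84.4% to 87.9%. It made up 48.5% (Wilson 95% interval 45.1% to 52.0%) and 44.1% (39.6% to 48.7%) in the sgJUN#1 libraries. These intervals cover counting error only, and the replicates differed by more than that. The share follows the PLCB4 level on which the family was chosen, so its fall is a description and was not tested. PLCB4 remained the most abundant member in every library, at 16.9 to 25.2 times the next one in NTC and 4.49 and 4.35 times in sgJUN#1.

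**Figure D2:**
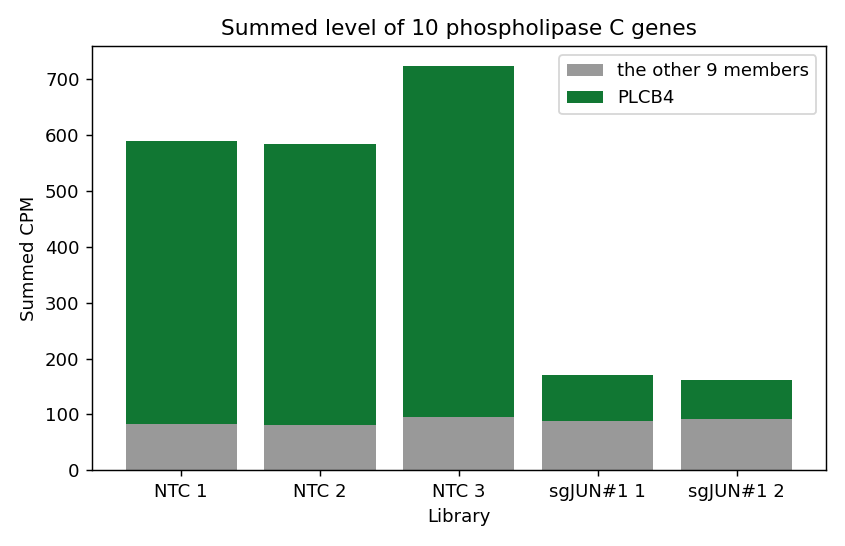
Summed CPM of the 10 genes in each library, divided into PLCB4 (green) and the 9 other members (grey). The grey part lay between 80.2 and 96.0 CPM in all 5 libraries, and the green part was at least 503 CPM in NTC and at most 82.6 CPM in sgJUN#1.

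In NTC the order of mean levels after PLCB4 was PLCD3, PLCB3, PLCH1, PLCE1, PLCB1, PLCG1, PLCG2, PLCB2 and PLCD1. Neighbours whose libraries overlapped were PLCD3 and PLCB3, PLCH1 and PLCE1, PLCE1 and PLCB1, PLCB1 and PLCG1, and PLCB2 and PLCD1. In sgJUN#1 PLCB3 and PLCD3 came next after PLCB4, at 17.4 ± 1.35 and 16.5 ± 1.13 CPM (SD, n = 2), and their libraries overlapped.

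Among the other members no change passed the test. Of the 7 tested members other than PLCB4, 0 passed the threshold of an adjusted p-value under 0.05 with edgeR's quasi-likelihood test, where 0.206% of all tested genes passed (0.0808% higher and 0.125% lower in sgJUN#1). Taking the unadjusted p-value the count under 0.05 was 0 as well, against 8.38% of all tested genes. It was also 0 with DESeq2 (1.05% of all genes called) and with limma-voom (0.147%). The same 0 was obtained with upper-quartile scaling (0.162%), library size alone (0.140%), no filter on low counts (0.756%), a mean count of at least 10 (0.166%) and a replicate block (0.756%). It held as well without NTC replicate 1, 2 or 3 (0.0742%, 0.413% and 0.439%) and without sgJUN#1 replicate 1 or 2 (0.224% and 0.169%). Their edgeR adjusted p-values ran from 0.626 to 0.963. With 7 tested genes and these shares, a count of 0 does not show whether the other members changed. The groups did not overlap in 3 members that were higher in sgJUN#1 and 1 that was lower, where 25.0% of all tested genes did not overlap (12.2% higher and 12.8% lower). On the log2 scale 5 of the 7 fold changes were above 0, where 49.0% of those of all tested genes were, and their median was 0.22 against -0.0082 over all tested genes. The study calls its replicates biological, whereas the labels do not say how the cultures were kept apart, and the p-values measure the spread between these libraries.

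**Figure D3:**
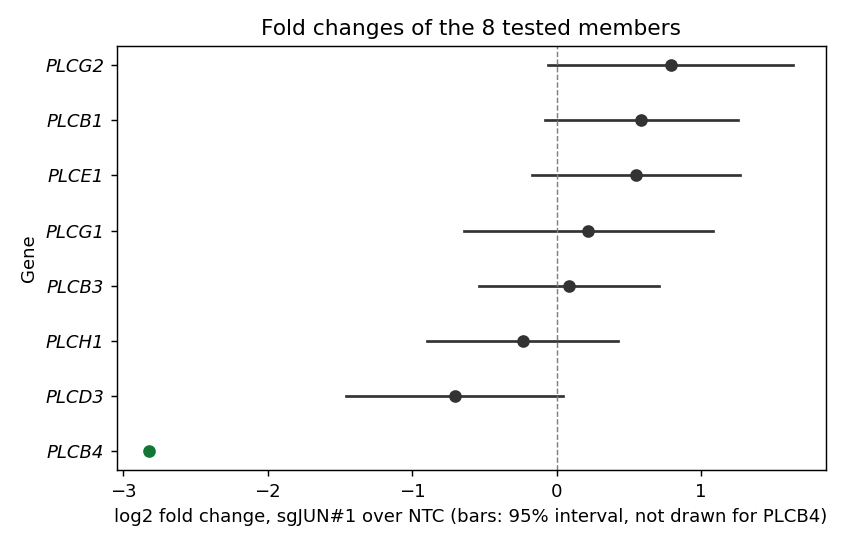
Log2 fold change (sgJUN#1 over NTC) of the 8 tested members, with 95% intervals from edgeR for the 7 members other than PLCB4. All 7 intervals include 0, and PLCB4, whose value chose the family, stood at -2.82.

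Among the β isozymes, PLCB1 is the chromosomal neighbour of PLCB4. It lies on the same strand of chromosome 20 (GRCh37, 8057898 to 8949007) and ends 99465 bp before PLCB4 begins. PLCB1 measured 7.98, 8.95 and 9.09 CPM in the NTC libraries against 15.1 and 10.7 CPM in the sgJUN#1 libraries. Both sgJUN#1 libraries were above all NTC libraries, but the log2 fold change of 0.59 (SE 0.298, 95% interval -0.08 to 1.26) had an edgeR adjusted p-value of 0.656. PLCB3, a widely expressed β isozyme (chromosome 11, 64019002 to 64036622, plus strand), measured 17.1, 19.9 and 12.9 CPM in the NTC libraries against 18.4 and 16.5 CPM in the sgJUN#1 libraries. Here the groups overlapped, and the 95% interval of the log2 fold change ran from -0.53 to 0.71. PLCB2, which is mainly known from blood cells (chromosome 15, 40570377 to 40600136, minus strand), held 8, 6 and 5 counts in NTC and 11 and 4 counts in sgJUN#1, too few to be tested.

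The γ isozymes carry SH2 domains that bind phosphorylated receptors. PLCG1 (chromosome 20, 39765600 to 39825441, plus strand) measured 6.05, 5.70 and 8.21 CPM in the NTC libraries against 5.78 and 10.4 CPM in the sgJUN#1 libraries, with overlapping groups and a 95% interval of -0.64 to 1.08 for the log2 fold change. PLCG2, the isozyme of B cells and other immune cells (chromosome 16, 81812884 to 81996290, plus strand), measured 4.40, 4.07 and 5.55 CPM in the NTC libraries against 6.40 and 10.4 CPM in the sgJUN#1 libraries. Its groups did not overlap, and it had the highest log2 fold change of the family, 0.79 (SE 0.379, 95% interval -0.06 to 1.64), with an edgeR adjusted p-value of 0.629. The 4 lymphoid and myeloid markers summed to 5.32 to 8.95 CPM in NTC and 11.4 to 17.5 CPM in sgJUN#1. Only CD68 of these was above 0 in every library, with means of 5.86 CPM in NTC and 13.7 CPM in sgJUN#1. The leukocyte gene PTPRC held 2, 1 and 10 counts in NTC and 0 and 4 counts in sgJUN#1. CD3E was at 0 and MS4A1 had at most 1 count, and the part of such cells in the PLCG2 level was not tested. The PLCG1 locus overlaps ZHX3 on the opposite strand, which had 364 to 800 counts per library, and the handling of strand in the counting is not given in the sources used here.

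Of the calcium-sensitive δ isozymes, PLCD3 was the second member by level in NTC and the one with the lowest log2 fold change after PLCB4. The gene lies on chromosome 17 (43186327 to 43210721, minus strand). It measured 26.4, 16.7 and 37.0 CPM in the NTC libraries against 17.3 and 15.7 CPM in the sgJUN#1 libraries. NTC replicate 2 lay within the range of sgJUN#1, and the log2 fold change of -0.71 (SE 0.335, 95% interval -1.46 to 0.05) had an edgeR adjusted p-value of 0.626. PLCD3 overlaps the ends of NMT1 (206 to 472 counts per library) and ACBD4 (4 to 31 counts), which lie on the opposite strand. PLCD1 (chromosome 3, 38048987 to 38071133, minus strand) held 6, 1 and 4 counts in NTC and 2 and 4 counts in sgJUN#1, close to the limit of detection, and no fold change is given for it.

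PLCE1, which links small GTPases to lipid cleavage (chromosome 10, 95753688 to 96092580, plus strand), measured 6.88, 12.6 and 9.98 CPM in the NTC libraries against 13.2 and 15.4 CPM in the sgJUN#1 libraries. Both sgJUN#1 libraries were above all NTC libraries, with a log2 fold change of 0.55 at an SE of 0.323 and an edgeR adjusted p-value of 0.703. PLCH1, an η isozyme (chromosome 3, 155093369 to 155462860, minus strand), measured 10.2, 9.36 and 11.3 CPM in the NTC libraries against 8.67 and 8.94 CPM in the sgJUN#1 libraries. The groups were separate by a small margin, with a log2 fold change of -0.23 at an SE of 0.295 and an edgeR adjusted p-value of 0.877.

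Promoter windows (RefSeq, GRCh38.p14) were at hand for 6 of the 10 members, namely PLCB3, PLCG1, PLCG2, PLCD3, PLCE1 and PLCH1. PLCB4, PLCB1, PLCB2 and PLCD1 had no window and were not searched. The windows held 300 bases, 250 before and 50 after the start site. They were searched on both strands for the AP-1 motif TGANTCA, the related CRE motif TGACGTCA and the TEAD motif GGAATG, which JUN dimers, ATF-containing dimers and the YAP partners TEAD are known to bind. No member window held the first or the second, which occur in 7.71% and 1.85% of all 35116 windows. PLCH1 alone held GGAATG, as do 14.0% of all windows, at 237 bases before the start site. The stretch around it is shown with the match in capitals on the strand of the gene, as the only match in the 6 windows (chr3:155745280-155745321, minus strand).
PLCH1: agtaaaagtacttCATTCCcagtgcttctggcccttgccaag
A match is a description of the sequence, and no binding was measured here.

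Of 8 further relatives, PLCD4, PLCH2, PLCZ1, the catalytically inactive PLCL1 and PLCL2, and PLCXD1 to PLCXD3, 6 were tested. Of these 0 passed the edgeR threshold or had an unadjusted p-value under 0.05, against 0.206% and 8.38% of all tested genes. PLCL2 was variable, at 11.6, 24.0 and 13.8 CPM in NTC and 13.2 and 17.9 CPM in sgJUN#1. PLCXD2 had the lowest unadjusted p-value and averaged 8.90 ± 0.906 CPM over the NTC libraries (SD, n = 3) and 11.3 ± 3.74 CPM over the sgJUN#1 libraries (SD, n = 2). Leaving out single libraries turned the direction of both. All 8 relatives lay below the level of PLCB4 in sgJUN#1, with at most 24.0 CPM in any library.

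Around PLCB4, 8 other genes of the table lie within 1000000 bp, of which 6 were tested. With edgeR 0 of them passed the threshold, where 0.206% of all tested genes did, and 0 had an unadjusted p-value under 0.05, against 8.38%. With DESeq2 (1.05% of all tested genes called) and limma-voom (0.147%) 0 passed as well. The groups did not overlap in 1 neighbour that was higher in sgJUN#1 and 1 that was lower, against 25.0% of all tested genes. The higher one was PLCB1, which is also counted among the family members above, and the lower one was PAK5. LAMP5, which begins 9765 bp after PLCB4 ends, was nearly silent with at most 1 count per library, and SNAP25 held 3 to 12 counts. PAK5, 32777 bp away, averaged 3.94 ± 0.580 CPM over the NTC libraries (SD, n = 3) and 2.95 ± 0.380 CPM over the sgJUN#1 libraries (SD, n = 2). ANKEF1, SNAP25-AS1, MKKS and SLX4IP had log2 fold changes between 0.01 and 0.40. With 6 tested genes and these shares, a count of 0 does not show whether the neighbours changed along with PLCB4.

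To place the family in its pathway, 168 genes in 12 lists were examined, from receptors to calcium signalling, and 125 of them were tested. With edgeR 0 passed the threshold, where 0.206% of all tested genes did. With DESeq2 1 passed, where 1.05% of all tested genes did, and with limma-voom 0, where 0.147% did. The unadjusted p-value was under 0.05 for 17 of them (13.6%), against 8.38% of all tested genes. The median log2 fold change was 0.06. The groups did not overlap in 24 genes that were higher and 16 that were lower (32.0% together), against 25.0% of all tested genes. By list this share ran from 0% in the Gq class α subunits to 70% in the kinases and adaptors upstream of the γ isozymes. Each edgeR count by list below stands beside the 0.206% of all tested genes that passed. With so few genes per list, a count of 0 does not show whether its genes changed.

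**Figure D4:**
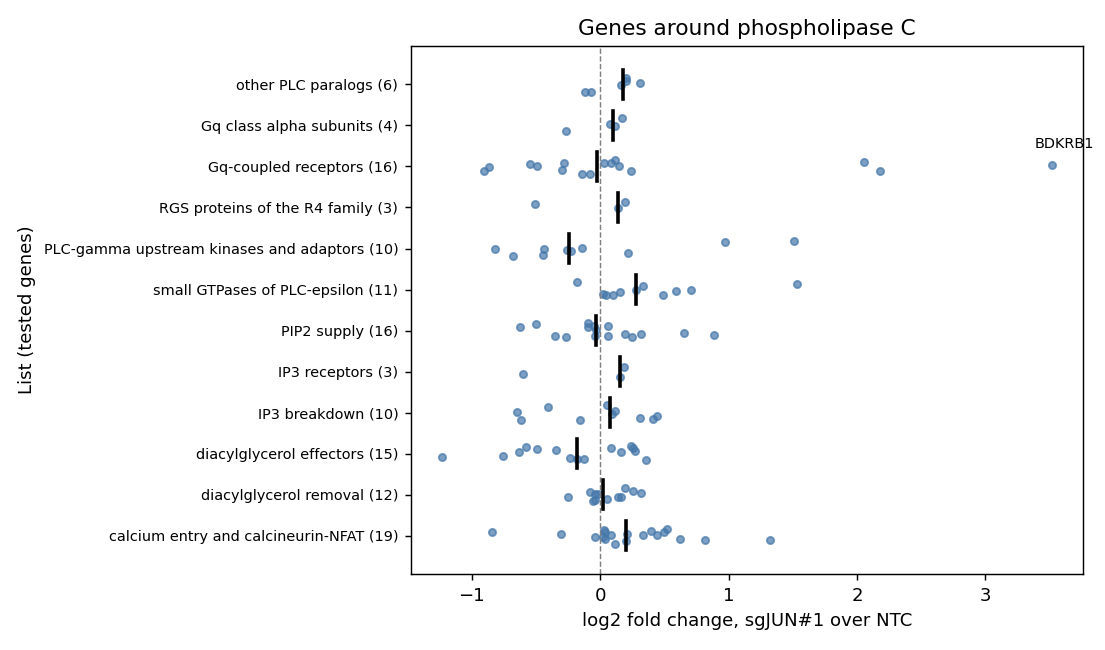
Log2 fold change (sgJUN#1 over NTC) of the 125 tested pathway genes by list, with each gene as a point, spread vertically for legibility, and the median of each list as a bar. Medians lay between -0.24 and 0.28, and the bradykinin receptor gene BDKRB1 stood apart at 3.52.

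The Gq class α subunits, which activate the β isozymes, were all tested and 0 passed. GNAQ measured 45.4, 83.8 and 77.4 CPM in the NTC libraries against 50.6 and 64.0 CPM in the sgJUN#1 libraries. The groups overlapped, with a log2 fold change of -0.27 at an SE of 0.281 and an edgeR adjusted p-value of 0.845. Of 10 RGS proteins of the R4 family, which speed the shut-off of Gq, 3 were tested and 0 passed. The most abundant, RGS2, averaged 177 ± 34.7 CPM over the NTC libraries (SD, n = 3) and 194 ± 39.6 CPM over the sgJUN#1 libraries (SD, n = 2), and RGS3 averaged 12.2 ± 0.984 and 8.48 ± 0.856 CPM.

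Of 35 receptors that couple to Gq, 16 had enough counts and 0 passed the edgeR threshold. The most abundant, the histamine receptor gene HRH1, measured 43.5, 59.0 and 41.5 CPM in the NTC libraries against 48.1 and 55.5 CPM in the sgJUN#1 libraries. BDKRB1, which encodes the inducible bradykinin B1 receptor, had the lowest unadjusted p-value of all 125 pathway genes. It held 3, 12 and 3 counts in NTC and 75 and 76 counts in sgJUN#1, or 0.825, 4.88 and 0.665 CPM against 15.5 and 27.2 CPM. Both sgJUN#1 libraries were well above all NTC libraries, of which replicates 1 and 3 lay at the detection limit. The log2 fold change of 3.52 (SE 0.637) had an edgeR adjusted p-value of 0.102. It passed with DESeq2 (adjusted p-value 1.72e-05), without a filter on low counts (edgeR adjusted p-value 0.0297), with a replicate block (0.0119) and without NTC replicate 2 (log2 fold change 4.77, edgeR adjusted p-value 0.00999), and the range over all alternatives was 1.72e-05 to 0.368. The constitutive B2 receptor gene BDKRB2, which lies next to it on chromosome 14 and is named here after its values were seen, measured 3.85, 3.66 and 0.665 CPM in the NTC libraries against 8.88 and 12.9 CPM in the sgJUN#1 libraries. Its groups did not overlap either, with a log2 fold change of 2.05 at an SE of 0.561 and an edgeR adjusted p-value of 0.294, and it did not pass in any of 12 alternatives.

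Upstream of the γ isozymes, 10 of 20 kinases and adaptors were tested, 0 passed, and the median log2 fold change was -0.24. EGFR measured 291, 390 and 673 CPM in the NTC libraries against 278 and 287 CPM in the sgJUN#1 libraries. The NTC libraries were widely spread, although both sgJUN#1 libraries were below them, and the log2 fold change of -0.68 (SE 0.325) had an edgeR adjusted p-value of 0.634. FGFR1 averaged 26.4 ± 8.47 CPM over the NTC libraries (SD, n = 3) and 51.1 ± 10.2 CPM over the sgJUN#1 libraries (SD, n = 2), with an edgeR adjusted p-value of 0.352. All 11 small GTPases that can act on PLC-ε were tested and 0 passed, with 10 of them above 0 on the log2 scale, where 49.0% of all tested genes were. RHOA, the most abundant, averaged 381 ± 75.4 and 387 ± 6.95 CPM, whereas the stress-inducible RHOB measured 5.78, 10.2 and 2.66 CPM in the NTC libraries against 20.0 and 13.6 CPM in the sgJUN#1 libraries. RHOB had a log2 fold change of 1.53 at an SE of 0.464 and an edgeR adjusted p-value of 0.361.

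For supply of the substrate, of 17 genes for PIP2 synthesis and transport, 16 were tested, 0 passed, and the median log2 fold change was -0.04. The lipid transfer protein gene PITPNB averaged 112 ± 4.03 CPM over the NTC libraries (SD, n = 3) and 109 ± 1.89 CPM over the sgJUN#1 libraries (SD, n = 2). The kinase gene PIP4K2C, with the lowest unadjusted p-value of this list, stood at 38.0 ± 5.92 and 59.1 ± 11.3 CPM (edgeR adjusted p-value 0.459).

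Downstream of IP3, the 3 IP3 receptors were tested and 0 passed. ITPR2, the most abundant of them, measured 73.4, 101 and 94.0 CPM in the NTC libraries against 53.9 and 64.0 CPM in the sgJUN#1 libraries. The groups did not overlap, and the log2 fold change of -0.60 (SE 0.219) had an edgeR adjusted p-value of 0.487. All 10 genes listed for the breakdown of IP3 and related phosphates were tested and 0 passed. The most abundant, BPNT2, stood at 126 ± 12.2 and 156 ± 5.71 CPM and the IP3 kinase gene ITPKC at 28.9 ± 11.8 and 18.7 ± 1.36 CPM. BPNT2 entered the list under its older symbol IMPAD1 and is not itself an enzyme of IP3 breakdown. Of 20 genes for calcium entry, calcium pumps and the calcineurin and NFAT route, 19 were tested, 0 passed, and 16 lay above 0 on the log2 scale, where 49.0% of all tested genes did, with a median of 0.21. The calmodulin gene CALM2 averaged 619 ± 155 CPM over the NTC libraries (SD, n = 3) and 780 ± 50.8 CPM over the sgJUN#1 libraries (SD, n = 2). ATP2B4, a plasma membrane calcium pump, measured 104, 103 and 163 CPM in the NTC libraries against 189 and 245 CPM in the sgJUN#1 libraries. Its groups did not overlap, and the log2 fold change of 0.81 (SE 0.251) had an edgeR adjusted p-value of 0.369. With a replicate block it passed (log2 fold change 1.06, edgeR adjusted p-value 0.0355), and in the other 11 alternatives it did not.

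On the diacylglycerol side, 15 of 18 effectors were tested and 0 passed, with a median log2 fold change of -0.18. MARCKS, a protein kinase C substrate that shields PIP2, was the most abundant and measured 267, 164 and 241 CPM in the NTC libraries against 157 and 133 CPM in the sgJUN#1 libraries. The groups did not overlap, and the log2 fold change of -0.63 (SE 0.245) had an edgeR adjusted p-value of 0.521. All 12 genes for removal of diacylglycerol were tested and 0 passed, with DGKI at 356 ± 34.7 and 392 ± 4.18 CPM and DGKA at 81.3 ± 17.3 and 97.2 ± 1.71 CPM.

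The 5 genes whose levels over the 5 libraries came closest to those of PLCB4 were LEKR1, LAMP3, MIR548G, THBS1 and LIMCH1. Likeness was measured as the root mean square distance of log2 CPM, centred on the NTC mean, and was 0.23, 0.37, 0.38, 0.39 and 0.44 on the log2 scale. Since they were chosen for a low level in sgJUN#1, their log2 fold changes of -2.48, -2.77, -3.18, -3.19 and -2.26 are descriptions. LIMCH1, an activator of non-muscle myosin, was the one nearest to PLCB4 in level, with 610 ± 209 CPM (SD, n = 3) in NTC and 127 ± 1.25 CPM (SD, n = 2) in sgJUN#1. MIR548G is listed under a microRNA symbol, and the 3′ assay does not measure the mature microRNA. THBS1 encodes the secreted matrix protein thrombospondin-1 and LAMP3 a lysosomal membrane protein, the latter at no more than 7.39 ± 0.665 CPM in NTC (SD, n = 3). LEKR1 came closest and averaged 223 ± 29.3 CPM over the NTC libraries (SD, n = 3) and 39.9 ± 5.79 CPM over the sgJUN#1 libraries (SD, n = 2). Of the other members of the family, PLCD3 had the smallest distance, 1.42.

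**Figure D5:**
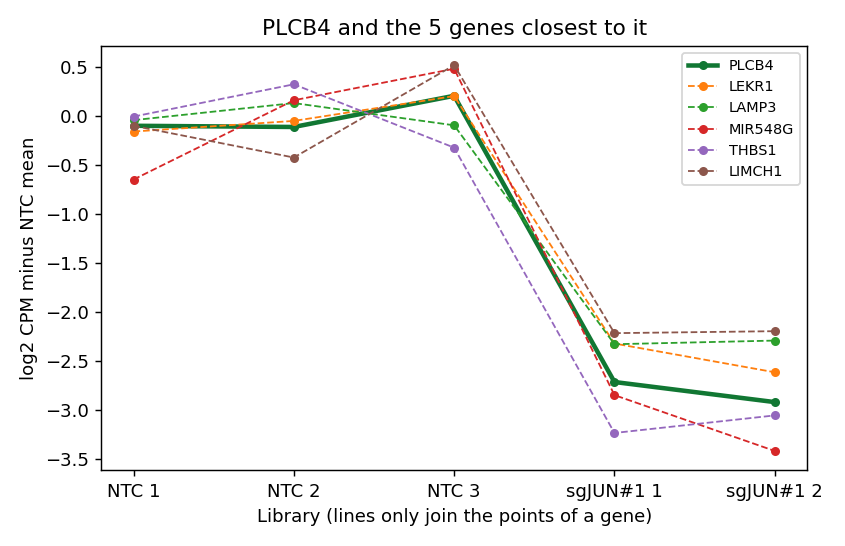
Log2 CPM minus the NTC mean in each library for PLCB4 (green) and the 5 genes closest to it. In the sgJUN#1 libraries PLCB4 lay at -2.71 and -2.92, within the range of the other 5 genes.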

How the data were processed

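Raw counts per gene were deposited by the authors, who made QuantSeq 3′ FWD libraries, trimmed reads with Cutadapt, aligned them to hg19 with Bowtie2 (the submitters' processing notes list versions 4.2 and 2.3.5.1) and counted overlaps in R. Annotation, strand, multiple alignments and molecular identifiers are not given in the sources used here. PCR copies may thus count as separate reads.

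Groups followed the sample titles, which give more NTC libraries than the replicate number the study states for this comparison, and all were used, and table columns matched the sample descriptions. Symbols for 23308 of 23459 genes came from RefSeq (GRCh38.p14), and positions from GENCODE v44 lifted to GRCh37, which corresponds to hg19. Counts were tested with edgeR 4.0.16 (R 4.3.3) by the quasi-likelihood F test with TMM, filterByExpr, robust estimation and group as the only term. This kept 13616 genes. P-values were adjusted by Benjamini-Hochberg over all tested genes, with 0.05 as the threshold. The SE was obtained from the log2 fold change and the square root of F, and CPM used TMM-scaled totals of tested genes. DESeq2 1.42.0, limma 3.58.1 (voom), other scalings, filters, a replicate block and fits without each library were alternatives. Tested on simulated data, the fits recovered the size of planted changes, and the share of false calls was above the nominal level.

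The members and lists were chosen with earlier results of these data known. Named are all members, JUN, neighbours within 1000000 bp of PLCB4, the 5 genes closest to it (prior count 2) and, per list, genes past the threshold, the most abundant gene and that with the lowest unadjusted p-value. All pairs of replicates differed by more than counting noise (chi-square per degree of freedom of at least 7.99).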

Additional observations from a re-analysis of the deposited data

How the results depend on the processing

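The log2 fold change of PLCB4 stayed within the replicate spread in all 12 alternatives, from -2.93 to -2.71, which is also the range over the fits that left out 1 library each. The counts of called members other than PLCB4 and of called neighbours were 0 in all 12. Over all genes the count of 28 was 143 with DESeq2 and 148 with no filter on low counts, and ran from 10 (without NTC replicate 1) to 57 (without NTC replicate 3) when 1 library was left out, with 56 without NTC replicate 2. The count of called pathway genes went from 0 to 1 with DESeq2 and with no filter, and ran from 0 to 1 when 1 library was left out (1 without NTC replicate 2), in each case BDKRB1. The cause was not tested.

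As to pairing, the groups share replicate numbers 1 and 2, and the labels tie them to no common day or batch. The sample descriptions give same-numbered libraries of both groups consecutive running numbers, whose meaning is not stated. Across genes, the replicate 1 minus 2 differences of NTC and sgJUN#1 correlated at 0.0146, and the libraries were not treated as pairs. With the replicate block 103 genes and 2 pathway genes, ATP2B4 (edgeR adjusted p-value 0.0355) and BDKRB1 (0.0119), were called, against 0 of the PLC members other than PLCB4. Replicate 3 has no sgJUN#1 library, so in the block fit NTC replicate 3 carried no weight in the group difference. The log2 fold changes of PLCB3 and RHOA turned to -0.071 and -0.074 in the block fit. They were -0.073 and -0.086 in the fit without NTC replicate 3, so the block is not a separate check from that fit.

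Of 408 values of 34 single genes, 385 kept their direction and side of the threshold. With library size alone SLX4IP turned to -0.0073. When 1 library was left out, log2 fold changes that turned ran from -0.073 to 0.23 for PLCB3, from -0.21 to 0.62 for PLCG1, from -0.28 to 0.28 for PLCL2, from -0.036 to 0.64 for PLCXD2, from -0.091 to 0.33 for RGS2, from -0.086 to 0.19 for RHOA and from -0.19 to 0.16 for SLX4IP. JUN passed the threshold in 5 of 12 alternatives, which were DESeq2 (adjusted p-value 4.08e-11), the replicate block (edgeR, 1.15e-04), limma-voom (0.0342) and the fits without NTC replicate 2 (edgeR, 0.0144) and without NTC replicate 3 (edgeR, 0.00121). At the depth of these libraries, members under 3 counts in a library, such as PLCD1, were at the limit of detection.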

Other observations

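A relative known mainly from another tissue was also counted. PLCZ1, the sperm isozyme that starts calcium waves in the egg, held 60, 37 and 81 counts in NTC and 66 and 48 in sgJUN#1. Its mean in NTC, 16.5 ± 1.45 CPM (SD, n = 3), was close to that of PLCB3, 16.6 ± 3.56 CPM (SD, n = 3). PLCZ1 was outside the rule for named genes and was picked after its values were seen. Whether its reads lie in exons of the gene cannot be read from counts per gene.

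The prostaglandin F receptor gene PTGFR, named here after its values were seen, held 19, 13 and 82 counts in NTC and 49 and 232 counts in sgJUN#1. On the CPM scale it measured 5.23, 5.29 and 18.2 in the NTC libraries against 10.1 and 83.0 in the sgJUN#1 libraries, so that the groups overlapped and the libraries within each group differed widely.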
